A study of Mus musculus with 18 samples.

Results

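Laptm5, Srr, Samhd1, Nrip2, Pik3cd, 1700003E16Rik and Galc are 7 protein-coding genes of the mouse chosen by the RMA values of their brightest probe sets, in which the wild-type saline pool departed from the other 5 pools. They are 7 of the 18194 genes that had probe sets annotated to exactly 1 symbol, and all 7 were among the 10916 genes bright enough to be tested. Every probe set annotated to 1 of these symbols was followed, which gave 29 of the 45101 probe sets on the array. The values that chose the genes are given as a description, with no test.

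The study measured gene expression in the whole brain of pups at postnatal day 8, to ask how acute lead exposure while synapses form acts on the brain and whether metallothioneins matter for it. The pups came from a brother-sister cross of a metallothionein knockout line (Mt-KO) that had been crossed to C57BL/6J for at least 7 generations, and were wild-type (+/+), heterozygous (+/-) or homozygous for the knockout (-/-). Pups received lead acetate at 50 mg/kg, or saline as weight-matched controls, on postnatal days 7 and 8, with 2 injections per day spaced by 4 h, and were killed 6 h after the final one. Pups of both sexes were used, and RNA from 5 of them was pooled for each of the 6 combinations of genotype and treatment, and each pool was read on 1 Affymetrix Mouse Genome 430 2.0 array. There was 1 pool per combination, so no pool has a replicate, and fewer cells of a type cannot be told apart from less RNA per cell in whole brain. Each array was deposited in 3 summaries of the same scan, RMA and GC-RMA on a log2 scale and PLIER as a linear intensity. RMA is used unless another is named.

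The array measures a gene through 1 or more probe sets, each a group of short probes aimed mostly at the 3' end of a transcript. Different probe sets of a gene can read different transcript ends, and those whose identifiers end in _x_at hold probes that are identical or very similar to other sequences. Laptm5 is a lysosomal membrane protein of blood cells and microglia, Samhd1 an enzyme that breaks down deoxynucleotide triphosphates and restricts retroviruses, and Pik3cd the catalytic delta subunit of phosphoinositide 3-kinase, best known in leukocytes. Srr, serine racemase, makes the D-serine that acts as a co-agonist at NMDA receptors, Nrip2 binds nuclear receptors, and Galc is the lysosomal galactosylceramidase that degrades myelin galactolipids and whose loss causes globoid cell leukodystrophy.

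Because the knockout targets metallothioneins and the treatment is a metal, the 250 bases before the transcript start of the genes were searched for the core of the metal response element, which the zinc-sensing factor MTF1 binds in metallothionein promoters. Of the 7 genes, 6 had an entry in the RefSeq promoter table (GRCm38.p6), with 8 starts in all. The regions of 4 genes whose brightest probe sets were low together are shown, in the direction of transcription. Capitals mark TGCACNC or TGCGCNC (the element's core), TATAAA and GGAAGT, each on either strand.
Laptm5: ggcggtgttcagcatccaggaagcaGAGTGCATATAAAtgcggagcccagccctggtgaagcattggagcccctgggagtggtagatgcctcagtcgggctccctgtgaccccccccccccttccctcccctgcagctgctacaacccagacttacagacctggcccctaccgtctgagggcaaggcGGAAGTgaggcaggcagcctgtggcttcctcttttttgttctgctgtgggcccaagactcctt
Srr: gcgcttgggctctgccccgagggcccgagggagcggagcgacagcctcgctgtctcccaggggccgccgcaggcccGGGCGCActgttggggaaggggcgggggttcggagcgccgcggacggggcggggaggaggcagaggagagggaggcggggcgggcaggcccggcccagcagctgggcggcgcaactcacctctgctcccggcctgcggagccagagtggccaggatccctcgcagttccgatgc
Samhd1: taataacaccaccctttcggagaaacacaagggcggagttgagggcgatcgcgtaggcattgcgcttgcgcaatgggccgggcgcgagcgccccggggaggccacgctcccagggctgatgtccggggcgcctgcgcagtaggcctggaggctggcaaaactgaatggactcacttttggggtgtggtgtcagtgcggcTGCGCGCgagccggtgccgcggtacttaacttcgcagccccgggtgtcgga
1700003E16Rik: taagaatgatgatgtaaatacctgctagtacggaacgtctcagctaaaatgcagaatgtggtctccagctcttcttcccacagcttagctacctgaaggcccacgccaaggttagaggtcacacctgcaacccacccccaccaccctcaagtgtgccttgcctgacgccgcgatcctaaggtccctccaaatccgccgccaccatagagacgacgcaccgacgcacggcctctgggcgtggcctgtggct
The Laptm5 region (chr4:130913066-130913315, + strand) held 1 TGCACNC match, read on the other strand as GAGTGCA directly before a TATAAA, and 1 GGAAGT. The regions of Srr (chr11:74925949-74926198, - strand) and Samhd1 (chr2:157135097-157135346, - strand) each held 1 TGCGCNC match. The 3 Pik3cd starts and the Galc start held neither form of the core, so 3 of the 8 regions held it. The 1700003E16Rik region (chr6:83156154-83156403, + strand) held none of these letters. Of all 32851 promoter regions of the same length, 21.4% held either form of the core, 12.4% TATAAA and 19.7% GGAAGT. GC content was 61.2% in the Laptm5 region, 76.8% in that of Srr, 65.6% in that of Samhd1 and 57.2% in that of 1700003E16Rik, against a median of 52.4% over all regions. GGGCGG, the GC box, was found 4 times in the Srr region and is not capitalised (32.7% of all regions held it), and CCAAT was found 1 time in the Laptm5 region (33.8%). The Laptm5 region, the Srr region and the 3 Pik3cd regions lie before listed starts within the span of their gene, not upstream of it. Those of Samhd1, 1700003E16Rik and Galc lie directly before the span of the gene. A match describes letters only.

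The 7 genes lie on 5 chromosomes. In GRCm38.p6, Laptm5 spans chr4:130912890-130936148, Pik3cd chr4:149649168-149702566, Samhd1 chr2:157097534-157135096 and Srr chr11:74904027-74927533. Nrip2 spans chr6:128397818-128409780, 1700003E16Rik chr6:83156404-83162975 and Galc chr12:98202287-98259459. Where each probe set lies within its gene was not analysed here.

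Across the tested genes the arrays correlated at 0.982 to 0.993, and the median RMA value of the tested genes was 11.05 in wild-type saline, 11.04 in heterozygous lead and 10.87 to 11.01 in the other 4. Departures are therefore given relative to the median gene, as wild-type saline minus the mean of the other 5 pools less the median of that difference over genes (0.114). Neuron markers, whose median level lay 2.70 to 2.97 above the median gene, marked the tissue as brain in all 6 pools. The pituitary hormone genes Gh and Pomc read 11.48 and 10.96 in the heterozygous lead pool against 9.29 to 9.83 and 9.36 to 9.73 in the others.

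In 6 of the 7 genes the brightest probe set was low in the wild-type saline pool, and in all 6 it was also low in the heterozygous lead pool. A reading of these genes as switched off, or as low in wild-type saline alone, did not match the RMA values. The RMA readings of the 6 genes in wild-type saline were 10.62 to 12.67 on the log2 scale, where the median tested gene read 11.05. Heterozygous lead, one of the 5 pools they were chosen against, was low beside wild-type saline. With GC-RMA wild-type saline read 5.71 (Samhd1), 6.71 (Laptm5), 6.72 (1700003E16Rik), 9.3 (Srr), 9.42 (Nrip2) and 12.01 (Pik3cd), where the median tested gene read 10.43. Heterozygous lead was again next lowest for Laptm5, Srr, Nrip2 and Pik3cd. For 1700003E16Rik it read 8.13 beside 8.26 in wild-type lead, and for Samhd1 5.88 beside 5.8. Galc went the other way, with its highest reading in wild-type saline in RMA and PLIER. With GC-RMA it read 8.99 in wild-type lead and 8.91 in wild-type saline.

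**Figure D1:**
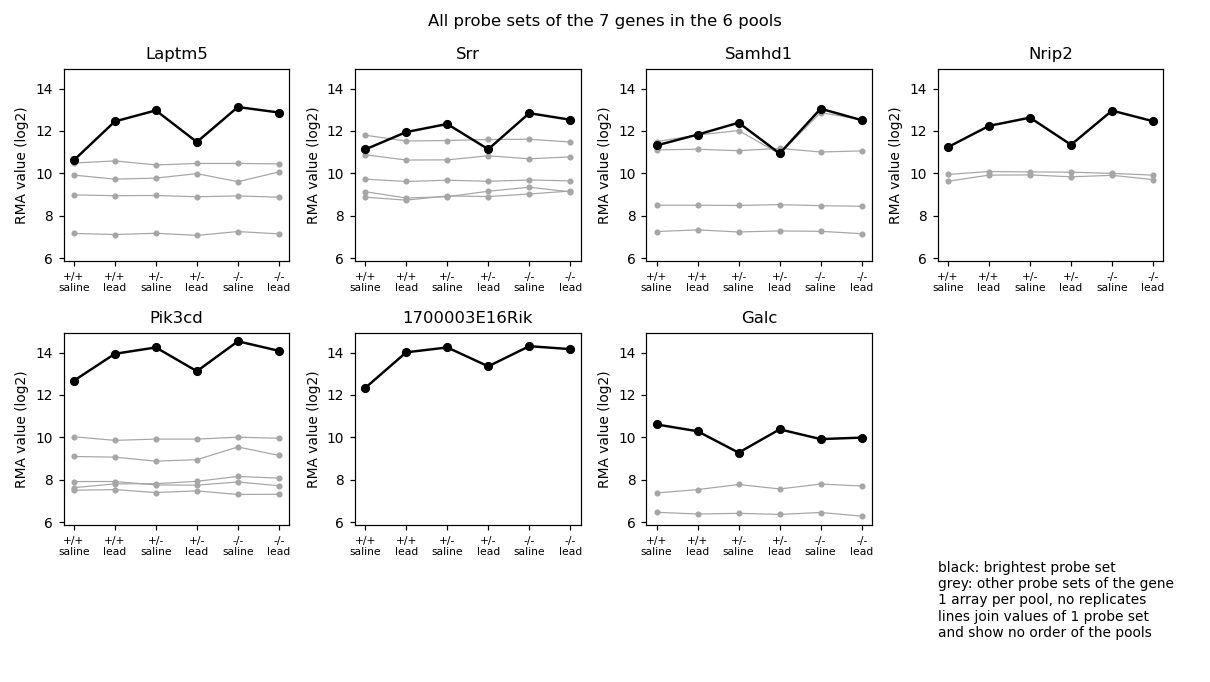
RMA values (log2, y axis) of all 29 probe sets of the 7 genes in the 6 pools (x axis, genotype and treatment), 1 panel per gene, with the brightest probe set in black and the others in grey. The black lines of 6 genes dip in the +/+ saline and +/- lead pools, while the grey lines stay nearly level except for 1 Samhd1 probe set.

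Laptm5 departed most. Its probe set 1447742_at read 10.62 in wild-type saline, 12.45 in wild-type lead, 12.97 in heterozygous saline, 11.48 in heterozygous lead, 13.13 in Mt-KO saline and 12.87 in Mt-KO lead. Wild-type saline was lowest and heterozygous lead next, and the other 4 pools lay within 0.69 of each other. The departure of wild-type saline was -2.08, the lowest of the 10916 genes, and in PLIER intensity the same probe set ran from 451 in wild-type saline to 4358 in Mt-KO saline. The other 4 Laptm5 probe sets showed no such dip. They ranged over 10.40 to 10.59 (1426025_s_at), 9.61 to 10.07 (1436905_x_at), 8.88 to 8.99 (1417721_s_at) and 7.08 to 7.26 (1459841_x_at), with departures between -0.10 and -0.03. The platform annotation lists a target sequence for 1426025_s_at and 1417721_s_at. It lists none for 1447742_at, and none for 1436905_x_at and 1459841_x_at, which had no dip.

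Microglia, the cells of the brain known to express Laptm5, were followed through their markers. Of 20 markers, 10 were bright enough to be tested. All 10 had negative departures of wild-type saline, with a median of -0.15, and 0 were at least 2-fold lower. C1qa, a complement component, read 10.37, 10.73, 10.41, 10.90, 10.57 and 10.81 in the same order of pools. Ctss, a lysosomal protease of microglia, was highest in heterozygous lead at 11.31, the pool in which Laptm5 was second lowest. Among 16 tested lysosome genes the median departure was 0.05 and Laptm5 was the 1 gene at least 2-fold lower. Lamp1, a major lysosomal membrane protein, read 14.15 in wild-type saline and 13.59 to 14.18 elsewhere.

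1700003E16Rik, a gene of uncharacterised function with 1 probe set (1428601_at), had the second lowest departure (-1.80). It read 12.33 in wild-type saline, 14.01 in wild-type lead, 14.24 in heterozygous saline, 13.35 in heterozygous lead, 14.30 in Mt-KO saline and 14.16 in Mt-KO lead. The 4 higher pools lay within 0.29 of each other, heterozygous lead was 0.66 below the lowest of them, and wild-type saline lay far below both. In GC-RMA the readings were much lower, 6.72 in wild-type saline and 8.13 to 9.17 elsewhere.

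The Pik3cd probe set 1443798_at read 12.67 in wild-type saline, 13.94 in wild-type lead, 14.24 in heterozygous saline, 13.12 in heterozygous lead, 14.53 in Mt-KO saline and 14.08 in Mt-KO lead. Its departure was -1.42, and both low pools were again wild-type saline and heterozygous lead. The other 5 Pik3cd probe sets were at least 3.82 dimmer on average and departed by -0.44 to 0.00. In a list of class I phosphoinositide 3-kinase genes, 9 were tested, with a median departure of -0.09. Inpp5d, a phosphatase that removes the lipid product of the kinase, departed by -0.40 and Pik3r3, a regulatory subunit, by -0.18.

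Nrip2 read 11.24 in wild-type saline, 12.24 in wild-type lead, 12.63 in heterozygous saline, 11.35 in heterozygous lead, 12.96 in Mt-KO saline and 12.46 in Mt-KO lead at probe set 1433792_at. Wild-type saline and heterozygous lead were almost level at the bottom, and the departure was -1.20. Its 2 other probe sets, 1433793_s_at (9.92 to 10.09) and 1452456_at (9.63 to 9.93), ranged over 0.16 and 0.30 across the pools. Of 11 tested nuclear receptor and coregulator genes the median departure was -0.01, and the thyroid hormone receptor gene Thra was at 0.25.

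Srr read 11.13 in wild-type saline, 11.95 in wild-type lead, 12.33 in heterozygous saline, 11.14 in heterozygous lead, 12.84 in Mt-KO saline and 12.53 in Mt-KO lead at probe set 1438549_a_at, a departure of -1.14. The 2 low pools differed by 0.01. The next brightest Srr probe set, 1455045_at, had its highest reading in wild-type saline (11.80, against 11.48 to 11.61 in the other 5) and so moved the opposite way by a small amount. The other 4 ranged over 0.11 to 0.50. With PLIER 1 of these, 1438550_x_at, read 8.65 in heterozygous lead, 9.85 in wild-type saline and 9.28 to 10.2 in the remaining pools. The annotation lists no target sequence for 1438549_a_at and 1438550_x_at, and lists a target for each of the other Srr probe sets. Among 9 tested genes of D-serine and serine supply the median departure was -0.09. Slc7a10, a neutral amino acid transporter that carries D-serine, departed by -0.33, and Phgdh, the first enzyme of serine synthesis, by -0.22.

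Samhd1 had 2 probe sets with the pattern in RMA and PLIER. In RMA, but not in GC-RMA or PLIER, its brightest was lowest in heterozygous lead. Probe set 1420273_x_at read 11.32 in wild-type saline, 11.83 in wild-type lead, 12.39 in heterozygous saline, 10.94 in heterozygous lead, 13.05 in Mt-KO saline and 12.51 in Mt-KO lead. The other bright probe set, 1420272_at, read 11.50, 11.81, 12.02, 10.92, 12.87 and 12.53 in the same order. Wild-type lead lay only 0.51 above wild-type saline at the first, so that no pool stood apart. Departures were -0.94 and -0.64, and neither probe set has a target sequence in the annotation. The other 3 Samhd1 probe sets, all with a listed target, ranged over 0.08 to 0.18. In GC-RMA both probe sets were low, 5.71 to 6.65 and 4.35 to 5.85, whereas 1434438_at held 9.47 to 9.55. There 1420272_at was low in wild-type saline alone, at 4.35 against 5.61 to 5.85 elsewhere, with heterozygous lead at 5.62. Among 11 tested genes of deoxynucleotide metabolism the median departure was -0.14 and 0 were at least 2-fold lower.

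Galc was high, not low, in wild-type saline. Probe set 1452907_at read 10.61 in wild-type saline, 10.29 in wild-type lead, 9.28 in heterozygous saline, 10.38 in heterozygous lead, 9.92 in Mt-KO saline and 9.99 in Mt-KO lead. The pool that stood apart was heterozygous saline, 0.64 below the next, and the departure of wild-type saline was 0.53. In PLIER intensity the readings were 899 in wild-type saline, 295 in heterozygous saline and 542 to 801 in the other 4. The dimmer Galc probe sets read 7.38 to 7.80 and 6.29 to 6.47, and wild-type saline was the lowest pool of the first. Among 15 tested genes of galactolipid and sphingolipid turnover the median departure was -0.08. Ugt8a, which makes the galactosylceramide that Galc degrades, departed by -0.43. By departure it is also the median member of the oligodendrocyte markers, of which 5 were tested and all 5 had negative departures.

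Over all tested genes, wild-type saline was at least 2-fold below the mean of the other 5 pools in 17 (0.156%) and at least 2-fold above it in 2 (0.0183%). Of the 7 genes 5 were among the 17, which is what they were chosen for. The lowest of the other 12 were Cryl1 (-1.64), Pcsk1n (-1.54), Tspyl1 (-1.50), Exoc8 (-1.25) and Parg (-1.17). On the high side Gm6958 (1.23) and the nuclear RNA Malat1 (1.14) led, followed by Rian (0.87), Megf11 (0.84) and Mapre2 (0.79). As deposited, wild-type saline lay below the range of the other 5 pools in 7.81% of genes and above it in 41.6%, and 5 and 1 of the 7 genes did so.

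Except for the second Samhd1 probe set, the dimmer probe sets of the 7 genes did not share these dips in RMA. Of the 22 dimmer probe sets of the 7 genes 0 departed by 1 or more in RMA, and 18 ranged over less than 0.5 across the 6 pools. In GC-RMA and PLIER the second Samhd1 probe set did depart by more, -1.44 and -1.81. Of the 17 genes at least 2-fold lower, 13 had another probe set and in 0 of these was any other probe set also at least 2-fold lower. The dips themselves were present in the other summaries, at least 2-fold in 15 (88.2%) of the 17 genes with GC-RMA and in 13 (76.5%) with PLIER. No target sequence was listed for the brightest probe sets of 4 (23.5%) of the 17 genes and 7.88% of all tested genes. Of the 7 genes it was missing for 3, Laptm5, Srr and Samhd1.

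**Figure D2:**
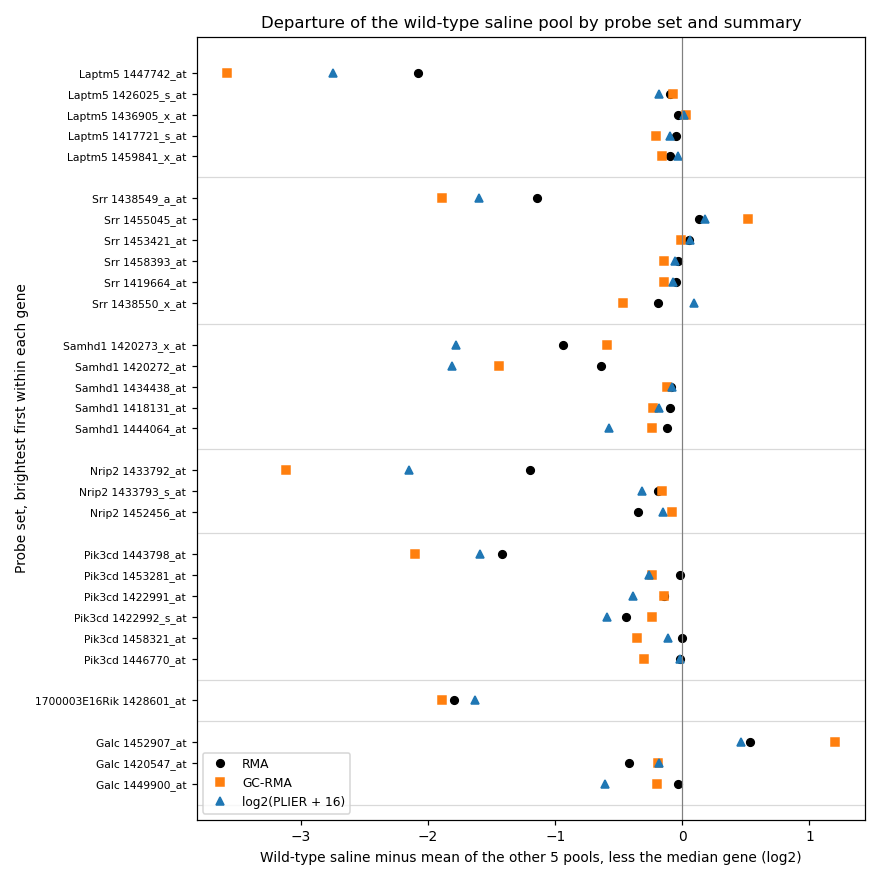
Departure of the wild-type saline pool from the mean of the other 5, less the median gene (log2, x axis), for each of the 29 probe sets (y axis) in RMA (circles), GC-RMA (squares) and log2(PLIER + 16) (triangles). The brightest probe sets of Laptm5, Srr, Nrip2, Pik3cd and 1700003E16Rik lie left of -1 in all 3 summaries, both bright Samhd1 probe sets move with the summary, and nearly all dimmer probe sets lie near 0.

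The sizes depended on the summary. With GC-RMA, which corrects each probe for its base composition, the departure was -3.58 for Laptm5, -3.12 for Nrip2, -2.10 for Pik3cd, -1.89 for Srr and for 1700003E16Rik, -0.59 for Samhd1 and 1.20 for Galc. With PLIER it was -2.75 for Laptm5, -2.15 for Nrip2 and -1.78 for Samhd1. Over the mean of a gene's probe sets it was -0.42 for Laptm5, -0.53 for Nrip2, -0.33 for Samhd1, -0.29 for Pik3cd, -0.15 for Srr and 0.08 for Galc. Mean readings fell from RMA to GC-RMA by unequal amounts. The gap was 5.91 for Samhd1 and 5.54 for 1700003E16Rik, as large in 1.94% and 0.924% of genes of similar RMA level. For Laptm5 it was 2.66 (3.23%), for Srr 1.21 (15.6%), for Nrip2 0.23 (41.3%), for Pik3cd 0.11 (25.4%) and for Galc 2.27 (57.9%).

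The heterozygous lead pool was set against the same 4 pools as wild-type saline. All 5 of these pools were part of the reference by which the genes were chosen, so the values are a description. Relative to the median gene, wild-type saline and heterozygous lead lay below the mean of the other 4 pools by these log2 amounts. For Laptm5 the differences were -2.38 and -1.50, for Pik3cd -1.67 and -1.21, for Nrip2 -1.47 and -1.35 and for Srr -1.42 and -1.40. For Samhd1 heterozygous lead was the lower, at -1.63 against -1.26, which turned with GC-RMA (-0.46 against -0.69) and PLIER (-1.86 against -2.15). For 1700003E16Rik it was -0.96 against -1.99. Galc was above in both, by 0.60 and 0.38. As deposited these were the lowest 2 pools in 6 of the 7 genes and in 1.8% of all tested genes (8.55% relative to the median gene). They were the highest 2 pools in 42.3% of tested genes (17.6% relative to the median gene). Both pools were at least 2-fold below the other 4 in 6 genes (0.055%), which were Laptm5, Srr, Samhd1, Nrip2, Pik3cd and Timm44, a subunit of the mitochondrial import motor. All 17 genes at least 2-fold lower in wild-type saline also had heterozygous lead below the other 4, 4 of them at least 2-fold. Relative to the median gene, as many tested genes lie below the other 4 as above them by construction. Several of the 17 were barely below, with -0.01 for Pcsk1n, -0.02 for Parg and -0.12 for Tspyl1, Exoc8 and Lrrc4b. Both comparisons use the same 4 pools.

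**Figure D3:**
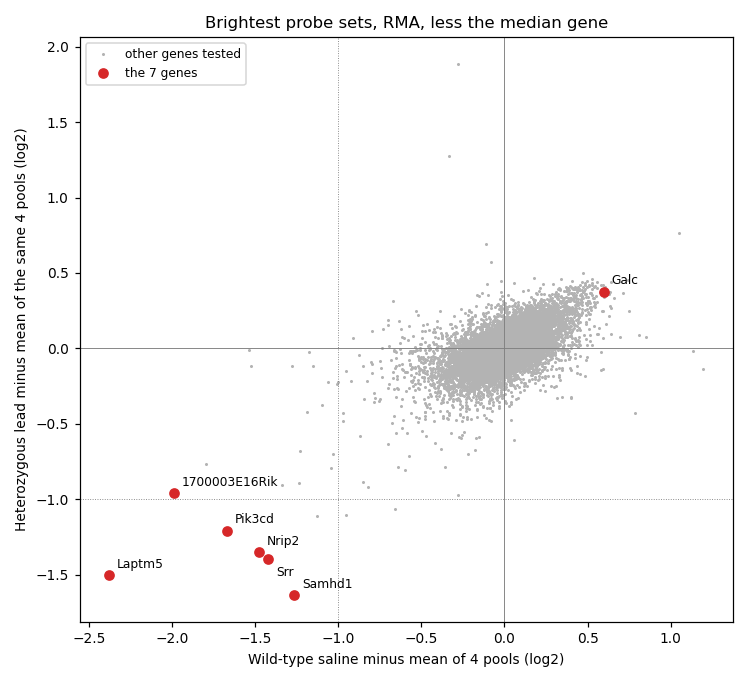
Wild-type saline (x axis) and heterozygous lead (y axis) against the mean of the same other 4 pools, RMA log2 difference less the median gene, for the brightest probe set of each tested gene (grey) and the 7 genes (red), with dotted lines at -1. Laptm5, Srr, Samhd1, Nrip2 and Pik3cd lie below -1 on both axes, 1700003E16Rik at -1.99 and -0.96, and Galc on the opposite side.

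The RMA readings of the control transcripts Gapdh and beta-actin moved with the pools in the opposite direction. The Gapdh 3' probe set read 15.12 in wild-type saline, 14.74 in wild-type lead, 14.52 in heterozygous saline, 15.09 in heterozygous lead, 14.33 in Mt-KO saline and 14.64 in Mt-KO lead. The beta-actin 3' probe set read 15.66, 15.35, 15.04, 15.63, 14.77 and 15.07 in the same order. Wild-type saline and heterozygous lead were thus the highest pools of both controls, and both controls ranked the 6 pools alike in RMA. With GC-RMA the beta-actin 3' probe set was highest in wild-type lead (16.24) and lowest in Mt-KO lead (15.91). The other controls did not have this order in RMA. The transferrin receptor 3' probe set was highest in Mt-KO saline (7.1, wild-type saline 6.98). That of pyruvate carboxylase read 10.51 in wild-type saline and was highest in heterozygous lead (10.74). Laptm5, Nrip2, Pik3cd and 1700003E16Rik ranked them in exactly the reverse order, as did 0.147% of all tested genes (3.65% had the same order), a comparison chosen after the values were seen.

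The excess of the 3' over the 5' probe set, a measure of RNA quality, was 1.19 for Gapdh in wild-type saline, 0.82 in heterozygous lead and 0.54 to 0.73 in the other 4 pools. For beta-actin it was 0.59 in wild-type saline, 0.38 in heterozygous lead and 0.37 to 0.48 elsewhere. For the transferrin receptor and pyruvate carboxylase it was 0.91 and 1.33 in wild-type saline against 0.69 to 1.01 and 1.18 to 1.51 in the others. The part of RNA quality, of control level and of the pituitary transcripts in heterozygous lead in these results was not tested.

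**Figure D4:**
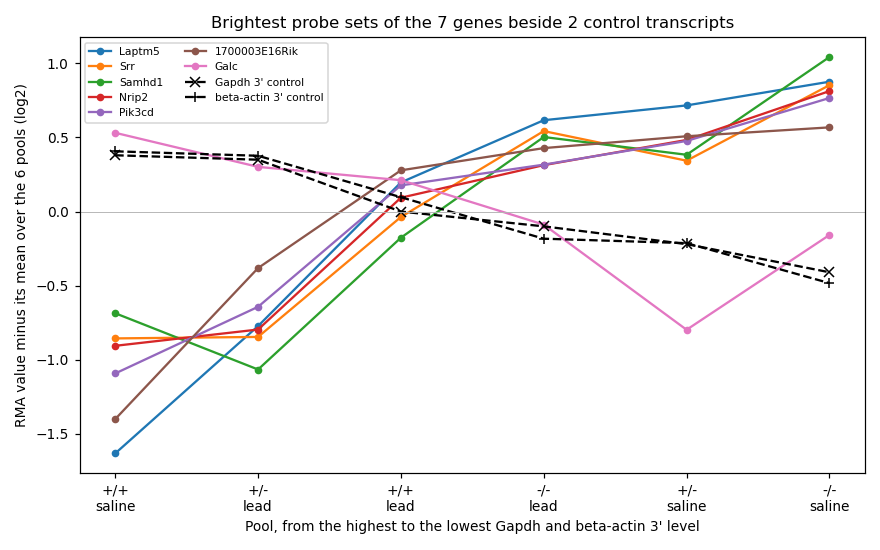
RMA value minus its mean over the 6 pools (log2, y axis) for the brightest probe sets of the 7 genes (coloured lines) and the Gapdh and beta-actin 3' controls (dashed black), with the pools (x axis) ordered from the highest to the lowest control level. The controls fall from left to right, 6 of the genes are low in the leftmost pools (+/+ saline and +/- lead), and Galc runs with the controls apart from its low +/- saline value.

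Across the 6 pools the brightest probe sets of the 6 low genes correlated with each other at 0.764 to 0.990, and Galc with them at -0.785 to -0.673. These are descriptions over 6 arrays that the genes share. The genes most like each member by the same measure were Aif1l and E2f5 for Laptm5 (both 0.995), Cryl1 (0.998) and Fen1 (0.997) for 1700003E16Rik, and E2f5 (0.991) and Laptm5 (0.990) for Pik3cd. For Nrip2 they were Tmem38b (0.996) and Timm44 (0.992), for Srr Drd2 (0.989) and Timm44 (0.988), for Samhd1 Sema6c (0.994) and Col11a2 (0.987), and for Galc Pknox1 (0.988) and Ing5 (0.982). Likeness of order did not mean likeness of size, since Drd2 read 10.06 to 10.28 over the pools and Cryl1 12.93 to 14.71.

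Lead minus saline differed in sign between the genotypes in these genes. For Laptm5 the difference, relative to the median gene of each pair, was 2.01 in wild-type, -1.64 in heterozygous and -0.35 in Mt-KO brain. For 1700003E16Rik it was 1.86, -1.04 and -0.23, for Pik3cd 1.46, -1.27 and -0.54, and for Nrip2 1.19, -1.42 and -0.60. Srr (1.0, -1.34 and -0.40) and Samhd1 (0.69, -1.60 and -0.64) had the same signs. Galc was at -0.13, 0.94 and -0.02. The wild-type difference rests on the array that chose the genes, and none of these single pairs can be tested.

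Limma was also fitted to the 5 pools without wild-type saline. These pools formed the reference of the choice, so the p-values are no independent support for the genes, although the contrasts set the pools against each other and not against wild-type saline. In the 4 heterozygous and Mt-KO pools, 6 of the 7 genes were lower with lead and Galc was higher. Laptm5 fell by 0.87 on the log2 scale (SE 0.16, limma adjusted p = 0.00192), Samhd1 by 1.0 (SE 0.12, limma adjusted p = 8.02e-05) and Nrip2 by 0.89 (SE 0.11, limma adjusted p = 0.000107). Pik3cd (-0.78), Srr (-0.75) and 1700003E16Rik (-0.51) also fell, with limma adjusted p of 0.00495, 0.000888 and 0.0399. Galc rose by 0.58 (SE 0.13, limma adjusted p = 0.00692). Of all tested genes 22.5% were called higher and 1.58% lower, around a median coefficient of 0.12. With each array centred on its median, 4.95% were called higher and 6.69% lower, and all 7 genes passed in the same directions.

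These calls rest on a spread borrowed from genes of similar brightness, since the fit leaves 1 residual degree of freedom. With arrays centred that spread was borrowed entirely. The Laptm5 pairs behind the SE of 0.16 were -1.49 and -0.26 as deposited. With no genotype block, which brings wild-type lead into the comparison, 0 of the 7 genes passed (limma adjusted p = 0.738 for each). With GC-RMA 0 passed either (limma adjusted p = 0.172 to 0.24), although the coefficients were as large as -1.90 for Laptm5 and 2.51 for Galc. Over the mean of a gene's probe sets 4 of the 7 passed, and Laptm5 (-0.14, limma adjusted p = 0.112), Srr (-0.10, limma adjusted p = 0.212) and Galc (0.11, limma adjusted p = 0.084) did not. With no brightness filter 1700003E16Rik did not pass (limma adjusted p = 0.076). Without the heterozygous lead array and without a block, the Laptm5 coefficient was -0.39 and that of Samhd1 -0.55.

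The genes of the same pathways are given beside the 22.5% of all tested genes called higher and the 1.58% called lower as deposited. Of 16 tested lysosome genes 4 rose with lead and 1, Laptm5, fell. Of 11 deoxynucleotide genes 7 rose and 1, Samhd1, fell. Of 9 serine genes 2 rose and Srr fell, of 11 coregulator genes 4 rose and Nrip2 fell, and of 9 phosphoinositide 3-kinase genes 3 rose and 2 fell, Pik3cd and Inpp5d. Of 15 galactolipid and sphingolipid genes 4 rose, Galc among them. Of 10 microglia markers 5 rose and 0 fell. After centring, 2 lysosome genes rose and 1 fell, 4 microglia markers rose and 0 fell, and 0 kinase genes rose and 3 fell. Of the serine genes 0 rose and 1 fell, and of the deoxynucleotide, coregulator and galactolipid genes 1 rose and 1 fell in each list.

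Between Mt-KO and heterozygous brain, with treatment as a block, 4 of the 7 genes were higher in Mt-KO. The background was 0.98% of genes called higher and 1.34% lower (3.03% and 4.22% after centring). Samhd1 was higher by 1.11 (SE 0.12, limma adjusted p = 1.57e-05), Srr by 0.94 (SE 0.12, limma adjusted p = 0.00012), Laptm5 by 0.78 (SE 0.16, limma adjusted p = 0.00999) and Nrip2 by 0.72 (SE 0.11, limma adjusted p = 0.000916). Pik3cd (0.63, limma adjusted p = 0.0519), 1700003E16Rik (0.44, limma adjusted p = 0.213) and Galc (0.12, limma adjusted p = 0.679) did not pass. Pik3cd and 1700003E16Rik did pass with arrays centred (limma adjusted p = 2.47e-05 and 0.00973) and after quantile normalization. The calls of Laptm5 and Nrip2 were lost in eBayes without trend (limma adjusted p = 0.114 and 0.0676) and over the mean of the probe sets (0.155 and 0.0719), and that of Laptm5 with no brightness filter (0.0726). These differences were larger in the lead pair than in the saline pair. Relative to the median gene they were 1.46 with lead and 0.17 with saline for Laptm5, and 1.18 and 0.34 for Nrip2. For Srr they were 1.45 and 0.51, and for Samhd1 1.63 and 0.66. Leaving out heterozygous lead, with no block, sets both Mt-KO pools against heterozygous saline alone, so that lead enters the contrast. There Laptm5 differed by 0.04, Nrip2 by 0.08, Srr by 0.35, Samhd1 by 0.39 and Galc by 0.67. Without Mt-KO saline 0 of the 7 passed (limma adjusted p from 0.255 for Samhd1). With GC-RMA 0 of all tested genes passed (1856 at an unadjusted p under 0.05). The differences there were 1.42 for Nrip2, 1.18 for Laptm5, 1.15 for Srr, 1.10 for Pik3cd and 0.02 for Samhd1, with limma adjusted p from 0.188. Among the other genes of the same pathways, Pik3ca, another catalytic subunit of the kinase, was higher in Mt-KO (0.28) and Dck, a deoxynucleoside kinase, was lower (-0.31), both named after their values were seen. Ugt8a was also lower (-0.58), and 4 of 5 tested oligodendrocyte markers, Ugt8a included, were lower. Of the tested lysosome, serine and coregulator genes, Laptm5, Srr and Nrip2 were the only ones to pass in this fit.

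Wild-type lead, the other wild-type pool, is a single array. Its comparison with the heterozygous and Mt-KO lead pools assumes that it varies as the others do. With arrays centred, the spread came wholly from genes of similar brightness. None of the 7 genes passed in RMA as deposited, which does not show that they were alike, and the calls turned with the scaling. The coefficients ran from 0.10 for Samhd1 to 0.34 for Nrip2 and Pik3cd, with limma adjusted p from 0.0734 (Nrip2) to 0.651 (Galc). Of all genes 1.47% were called higher and 24.8% lower, around a median coefficient of -0.13. After centring, 11.8% were called higher and 6.97% lower, and all 7 genes passed and were higher, by 0.26 to 0.50 (limma adjusted p = 2.88e-05 for Laptm5). After quantile normalization Nrip2 (limma adjusted p = 0.0288) and Pik3cd (limma adjusted p = 0.0286) passed, and with PLIER Nrip2 did (limma adjusted p = 0.045). Nrip2 also passed over the mean of its probe sets (limma adjusted p = 0.0471) and among the brighter genes under the stricter brightness filter (limma adjusted p = 0.0019), where Laptm5 passed too (limma adjusted p = 0.0241). In the lysosome, deoxynucleotide, serine, coregulator, galactolipid and kinase lists, every gene called as deposited was lower in wild-type lead. This direction turned with the scaling too. With arrays centred, more of the called genes were higher than lower in each list except the deoxynucleotide genes. In this comparison the sign for Samhd1 turned with GC-RMA (-0.21) and that of Srr over the mean of the probe sets (-0.12).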

How the data were processed

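Each of the 6 pools was read on 1 array and deposited as 3 columns, so the 18 columns stand for 6 samples. Partek, RMA, GCRMA and PLIER are named in the submitters' processing notes, and their versions are not given in the sources used here. RMA and GC-RMA columns were deposited as log2 values, and PLIER columns were deposited as linear intensities, used as log2(value + 16). The labels name a labelling kit for whole-transcript arrays, but the identifiers belong to a 3' array. The number of arrays limits the precision.

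Of 45101 probe sets, 34958 had 1 gene symbol in the platform annotation, 932 several and 9211 none, and the last 2 kinds were left out. Of those with 1 symbol, 34754 matched the RefSeq genes of GRCm38.p6 by identifier, none under another symbol. The probe set with the highest mean RMA value stood for each of 18194 genes, and the upper 60%, 10916 genes, were tested. Probe sequences and positions of probe sets were not analysed here. The members, the gene lists and the rules were chosen with earlier results of these data known.

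All 7 members were named with every probe set, up to 4 genes per list by size of departure, the 5 lowest and 5 highest other genes outside the range of the other pools, and the 2 genes most correlated with each member. Genotype and treatment were fitted to 5 arrays with limma 3.58.1 (R 4.3.3), using a trended eBayes prior and two-sided tests called at a Benjamini-Hochberg adjusted p of 0.05 over all tested genes, with 1 residual degree of freedom and a prior worth 19.5. The script was tested on simulated data. The alternatives were GC-RMA, PLIER with other offsets, quantile normalization, centred arrays, the mean of a gene's probe sets, other brightness filters and fold limits, eBayes without trend, a threshold of 0.10, no block, other reference pools and leaving out each array. Fits that leave out an array without a block were added after seeing the data.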

Additional observations from a re-analysis of the deposited data

Results flagged for a closer look

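The lead minus saline difference of the brightest probe set went opposite ways in different genotypes, relative to the median gene of each pair, in all 7 genes with RMA. Heterozygous minus wild-type, this difference of differences was -3.65 for Laptm5, -2.91 for 1700003E16Rik, -2.72 for Pik3cd, -2.61 for Nrip2, -2.34 for Srr and -2.29 for Samhd1. Mt-KO minus wild-type, it was -2.36 for Laptm5, -2.09 for 1700003E16Rik, -1.99 for Pik3cd, -1.78 for Nrip2, -1.40 for Srr and -1.33 for Samhd1. For Galc it was 1.08 heterozygous minus wild-type and -0.97 Mt-KO minus heterozygous, where the opposite signs rest on -0.13 in wild-type and -0.02 in Mt-KO. With GC-RMA the Galc differences had 1 sign (0.24, 4.21 and 0.61 in wild-type, heterozygous and Mt-KO), and with PLIER they were -0.01, 1.18 and 0.04. There was 1 pool per combination, so the difference was not tested, and the wild-type values rest on the array that chose the genes.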

How the results depend on the processing

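The 7 departures kept their direction under every alternative run, 78 of 91 values moved by less than the spread of the other 5 pools, and the other 13 came from GC-RMA, PLIER and the mean of the probe sets. Genes at least 2-fold lower in wild-type saline numbered 17, and 79 with GC-RMA, 72 with PLIER, 4 with the mean of probe sets, 30 against the other saline pools, 138 at a limit of 0.5 and 4 at 1.5. Genes at least 2-fold higher numbered 2, and 50 with GC-RMA, 1 with the mean of probe sets, against wild-type lead alone or in the upper 40% of genes, 4 against the other saline pools, 41 at a limit of 0.5, 0 at 1.5, and 1 to 3 leaving out 1 array. Limma called 2624 genes for lead, and 0 with GC-RMA (2340 at an unadjusted p under 0.05), 5416 with PLIER, 542 after quantile normalization, 1270 with arrays centred, 1537 with no brightness filter, 4226 at a threshold of 0.10, 1 with no genotype block and 0 to 8 leaving out 1 array with no block, the 0 being without heterozygous lead (500 at an unadjusted p under 0.05). For Mt-KO minus heterozygous it called 253, and 0 with GC-RMA (1856), 516 with PLIER, 792 centred, 469 with the mean of probe sets, 143 with no filter, 384 in the upper 40%, 41 without trend, 484 at 0.10, 43 with no treatment block and 21 to 50 leaving out 1 array, where Galc ranged from -0.42 to 0.67 and 1700003E16Rik from -0.01 to 0.88. For wild-type lead it called 2864, and 0 with GC-RMA (2129), 4401 with PLIER, 1408 after quantile normalization, 178 with no treatment block and 49 to 263 leaving out 1 array. There the sign turned for Samhd1 (-0.21) and 1700003E16Rik (-0.07) with GC-RMA and for Srr (-0.12) over the mean of probe sets. It also turned with no treatment block, which sets wild-type lead against saline pools too, for Laptm5 (-0.17), Srr (-0.26), Samhd1 (-0.39), Nrip2 (-0.11), Pik3cd (-0.05) and 1700003E16Rik (-0.01). Leaving out 1 array as well gave -0.54 to 0.20 for Laptm5, -0.56 to 0.04 for Srr, -0.76 to -0.03 for Samhd1 (limma adjusted p = 0.00783 without heterozygous lead), -0.43 to 0.21 for Nrip2, -0.33 to 0.23 for Pik3cd and -0.23 to 0.22 for 1700003E16Rik, with 0.13 to 0.68 for Galc (limma adjusted p = 0.000207 without heterozygous lead). The cause of these changes was not tested.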
